A study of Mus musculus with 2 samples.

Results

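Chemokines are small secreted proteins that direct the movement of leukocytes, and the genes described here are those of the mouse chemokines and their receptors. Members were taken by symbol from the deposited gene list: the Ccl, Cxcl and Xcl ligands, Cx3cl1, Pf4 and Ppbp, the Ccr, Cxcr, Xcr1 and Cx3cr1 receptors, and the atypical receptors named Ackr. The rule used no measured value and gave 69 gene IDs of 31053, with 64 distinct symbols: 46 ligands, 19 receptors and 4 atypical receptors.

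A chemokine binds to a receptor with 7 membrane-spanning segments on the receiving cell, which couples to inhibitory G proteins and steers the cell up the gradient. In the kidney, injured tubule, endothelial cells and resident macrophages are known sources, and monocytes, neutrophils and lymphocytes are known receivers. Atypical receptors bind chemokines without G protein signalling and take them up, which shapes the gradient.

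The study made 2 droplet single-cell libraries from kidney cortex of 12-week-old mice. The I-PpoI library came from mice that express I-PpoI, a homing endonuclease that cuts DNA, in podocytes, the filter cells of the glomerulus, and the control library is labelled wild-type. With 1 library per group there was no test between groups: every value below is a count of unique molecular identifiers (UMIs, 1 per captured RNA molecule) or a level in CPM (a gene's UMIs scaled to the same total of UMIs in each class or library), and intervals are exact 95% intervals for counting error only. The labels used here do not give the promoter that drives I-PpoI, the strain, or how many mice a library holds, so differences between the conditions, the mice and the libraries cannot be told apart.

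After filtering, 3949 cells with 35037164 UMIs were kept from the I-PpoI library and 3094 cells with 19595441 UMIs from the wild-type library. The libraries stood apart in depth (median 6647 against 3486.5 UMIs per cell) and in the median share of mitochondrial UMIs (3.31% against 14.3%), and they shared 6 cell barcodes. Clusters were made without the member genes and mostly split by library, so each class comparison below names the main clusters that held its cells. The I-PpoI library held 1598 macrophage-like cells (40.5%) and 214 proximal tubule-like cells (5.42%), and the wild-type library 176 (5.69%) and 1343 (43.4%). No podocyte cluster was found in either library, so the cells that carry the endonuclease are not described.

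Of the 69 gene IDs, 11 had 0 UMIs in kept cells, 8 had under 20, 16 had at least 20 but under 200, and 34 had 200 or more. The 50 with 20 or more UMIs over both libraries were called measured. The IDs at 0 were Ccl26, Ccr1l1, Ccl27b, both IDs of each of Ccl21b, Ccl21c and Ccl27, and 1 of the IDs each of Ccl19 and Ccl21a. Several of these are near-identical copies of a neighbour, so values of Ccl19, Ccl21a and Ccl27a are uncertain.

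Chemokine RNA was far more abundant in the I-PpoI library, on the sending and on the receiving side. Of the 50 measured members, 38 (76%) were at least 2-fold higher in the I-PpoI library over all kept cells, where 18.5% of all 15591 measured genes were. Only Ackr3 and Ccl21a were at least 2-fold lower, against 14.1% of all measured genes. By role, 26 of 34 ligands, 11 of 14 receptors and 1 of 2 atypical receptors were higher. The median log2 ratio was 2.89 over the members and 0.04 over all measured genes.

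**Figure D1:**
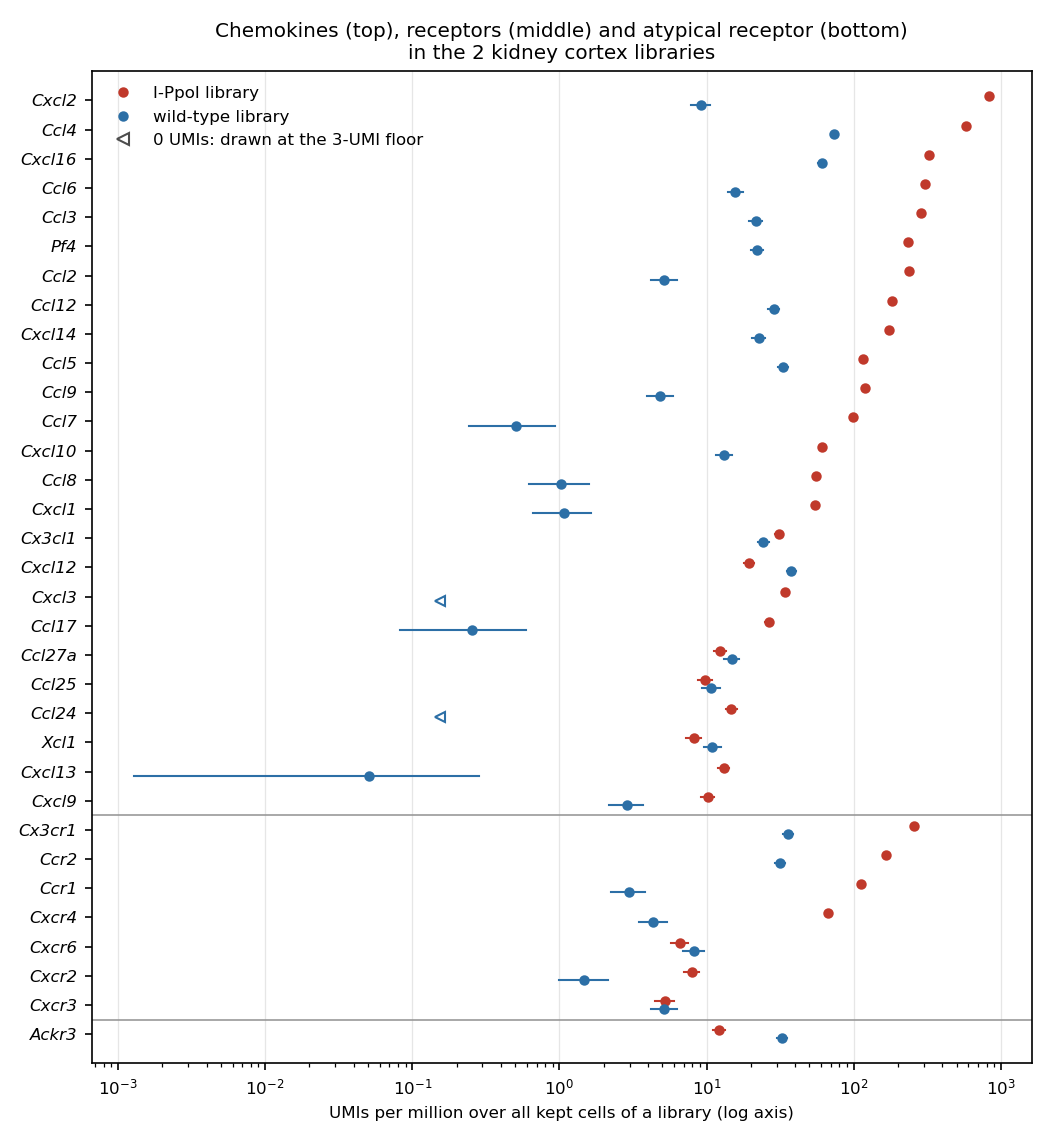
Level of 33 members with 200 or more UMIs over all kept cells of each library, in CPM on a log axis, with exact 95% counting intervals (many are narrower than the point). Red points (I-PpoI) lie to the right of blue points (wild-type) for most genes, while Cx3cl1, Ccl27a, Ccl25, Xcl1, Cxcr6 and Cxcr3 lie close together and Cxcl12 and Ackr3 lie the other way. Open triangles stand at the 3-UMI floor for genes with 0 UMIs.

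Among the CXC ligands that draw in neutrophils through Cxcr2, Cxcl2 had the most UMIs of any member over both libraries. Cxcl2, made by activated myeloid cells, had 28893 UMIs (825 CPM) in 898 I-PpoI cells and 179 UMIs (9.13 CPM) in 19 wild-type cells, a ratio of 90.3 (77.9 to 105). A single wild-type cell held 96 of those 179 UMIs, and without the top cell of each library the ratio was 192. Cxcl1, a ligand of the same receptor, had 1913 UMIs (54.6 CPM) against 21 (1.07 CPM), a ratio of 50.9 (33.2 to 82.5). Cxcl3 had 1205 UMIs (34.4 CPM) against 0, which puts it at least 225-fold higher, with the wild-type library set at the floor of 3 UMIs. Of the 1205, 514 lay in 1 cell, and without it the bound was 129-fold. All 3 genes were high in the I-PpoI library and low or at 0 in the wild-type library.

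These 3 ligands of the same receptor belong to 1 gene cluster on chromosome 5, and their sequences just before the start sites are shown because they share letters there. The windows are RefSeq promoters of build GRCm38.p6, the 120 bases up to 1 base before the start, 5′ to 3′ on the gene's plus strand, and capitals mark matches to an NF-kB type motif, spelled GGG, then any 3 bases, then TTCC, or to its reverse complement (overlapping matches are joined). Cxcl1 is at chr5:90891125-90891244, Cxcl2 at chr5:90903779-90903898 and Cxcl3 at chr5:90785981-90786100.
Cxcl1: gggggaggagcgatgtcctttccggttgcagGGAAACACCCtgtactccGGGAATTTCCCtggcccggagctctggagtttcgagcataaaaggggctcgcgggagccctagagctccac
Cxcl2: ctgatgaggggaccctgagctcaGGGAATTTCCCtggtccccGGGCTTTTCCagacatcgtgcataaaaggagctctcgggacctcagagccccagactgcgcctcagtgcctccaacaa
Cxcl3: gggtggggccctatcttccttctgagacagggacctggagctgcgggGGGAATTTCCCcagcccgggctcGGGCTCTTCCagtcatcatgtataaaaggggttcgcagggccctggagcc
All 3 windows hold the run GGGAATTTCCC. Over 250 bases before the start, the motif was found on either strand in 4.65% of 32851 RefSeq promoters and in 7 of 42 promoters of measured members, namely those of Ccl9, Ccl20, Ccr6, Cxcl1, Cxcl2, Cxcl3 and Cxcl10. RefSeq promoters matched 48 of 64 member symbols, 38 of them measured, and some genes have more than 1. Other motifs searched the same way were AP-1 (TGANTCA), in 6.75% of all promoters and 4 of the 42, and an interferon response motif (TTTC, any 2 bases, TTTC), in 2.98% and 3 of the 42. A match says only that the letters are there.

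The cells that carried these ligands differed. In the I-PpoI library Cxcl2 was highest in neutrophil-like cells (7963 UMIs in 177 cells, 18335 CPM), while macrophage-like cells held most of its UMIs (19877, 68.8% of the library's Cxcl2, 1364 CPM). Cxcl3 had the same pair of sources, at 700 CPM in neutrophil-like and 59.8 CPM in macrophage-like cells, where 1 cell held 514 of 872 UMIs. Among named classes Cxcl1 was highest in proximal tubule-like cells, with 892 UMIs (201 CPM, 46.6% of its UMIs), ahead of macrophage-like cells at 50.6 CPM, and neutrophil-like cells had 0 UMIs. A Cxcl1 UMI was seen in 86 of 214 I-PpoI proximal tubule-like cells (40.2%; 14.4% after thinning each cell to 1000 UMIs) and in 2 of 1343 wild-type ones (0.149%). In I-PpoI T cell-like cells, which are not a known source, the share was 1.16% (0% after thinning) at a median of 2906 UMIs, against a median of 16452.5 in the proximal tubule-like cells.

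Cluster 22, unnamed and small, held 26 cells of the I-PpoI and 17 of the wild-type library, was led by Tagln, Cp and Cdh6 and had 5 of 6 parietal epithelial markers. In the I-PpoI library it had the highest Cxcl1 level of the classes and unnamed clusters, 312 CPM, and 352 CPM of Ccl2. Cxcl5 and Ppbp, further Cxcr2 ligands, were sparse. Cxcl5 had 148 UMIs in the I-PpoI library, 76 of them in 1 cell, and 0 in the wild-type library, and 121 of the 148 lay in the unnamed cluster 0, which had 8 of 8 thick ascending limb markers but was led by Lcn2, Clu, S100g, Klk1, Wfdc2 and Aqp2. Ppbp had 145 UMIs against 3, with 120 in macrophage-like cells. Pf4, a CXC ligand of platelets and macrophages, had 8214 UMIs (234 CPM) against 431 (22 CPM), a ratio of 10.7 (9.67 to 11.8), with 96.8% and 81.7% of its UMIs in macrophage-like cells.

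The receptor for most of these ligands was read almost only in neutrophil-like cells. Cxcr2 had 278 UMIs (7.93 CPM) in the I-PpoI library and 29 (1.48 CPM) in the wild-type library, a ratio of 5.36 (3.65 to 8.16). Neutrophil-like cells held 263 and 27 of these, at 606 CPM in 177 I-PpoI cells and 728 CPM in 12 wild-type cells. The level per cell class was thus similar and the number of such cells was not, although 12 cells are too few for the class comparisons made here. Cxcr1 had 15 UMIs, all of them in I-PpoI neutrophil-like cells.

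Ligands of Ccr2, the receptor that brings monocytes from the blood, came next. Ccl2 had 8380 UMIs (239 CPM) in 777 I-PpoI cells and 101 UMIs (5.15 CPM) in 32 wild-type cells, a ratio of 46.4 (38.1 to 57.0). Ccl7 had 3446 UMIs (98.4 CPM) against 10 (0.51 CPM), a ratio of 193 (105 to 402). Ccl12 had 6353 UMIs (181 CPM) against 560 (28.6 CPM), a ratio of 6.34 (5.82 to 6.93). All 3 were higher in the I-PpoI library, with Ccl7 nearly absent from the wild-type library and Ccl12 present in both. Macrophage-like cells held 87.4% of I-PpoI Ccl2 (503 CPM), 96.5% of Ccl7 (228 CPM) and 98.0% of Ccl12 (427 CPM). Outside them, Ccl2 was at 116 CPM in proximal tubule-like cells, 113 CPM in the unnamed cluster 4 (251 I-PpoI cells, 13 of 14 proximal tubule markers, led by Aqp1, Cryab and Apela), 35.2 CPM in fibroblast-like and 23.5 CPM in endothelial-like cells.

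Ccr2 itself had 5824 UMIs (166 CPM) against 616 (31.4 CPM), a ratio of 5.29 (4.87 to 5.75). It was lower per macrophage-like UMI in the I-PpoI library, at 361 against 490 CPM (ratio 0.737, 0.665 to 0.819), and was read in 48.6% and 49.4% of macrophage-like cells. T cell-like cells had 123 and 180 CPM. The highest level was in cluster 13 (62 cells from the I-PpoI and 24 from the wild-type library, with 10 of 13 dendritic cell markers, led by H2-Eb1, H2-Aa and Cd52), at 527 and 775 CPM. Ccl8, a ligand of Ccr8 in mice, had 1957 UMIs (55.9 CPM) against 20 (1.02 CPM), a ratio of 54.7 (35.3 to 89.8), and 95.4% of its I-PpoI UMIs and all 20 wild-type UMIs were in macrophage-like cells.

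Inflammatory CC ligands formed the next group. Ccl4, made by activated myeloid and T cells, had 20285 UMIs (579 CPM) against 1438 (73.4 CPM), a ratio of 7.89 (7.48 to 8.33), and Ccl3, a ligand of Ccr1, had 9973 (285 CPM) against 422 (21.5 CPM), a ratio of 13.2 (12.0 to 14.6). In the I-PpoI library both were highest in neutrophil-like cells (4483 CPM of Ccl4 and 4506 CPM of Ccl3), followed by macrophage-like cells (1200 and 537 CPM). In the wild-type library macrophage-like cells led, with 1532 CPM of Ccl4 and 461 CPM of Ccl3. The 12 wild-type neutrophil-like cells had 11 UMIs of Ccl4 and 0 of Ccl3, which allows a level of Ccl3 of up to 80.9 CPM.

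Ccl6 and Ccl9, further Ccr1 ligands, showed ratios of 19.3 (17.3 to 21.7) and 24.5 (20.0 to 30.3). Their UMIs were 10648 against 308 and 4157 against 95, and macrophage-like cells held 93.3% and 94.5% of those in the I-PpoI library. The 12 wild-type neutrophil-like cells had 77 Ccl6 UMIs (2076 CPM), where I-PpoI neutrophil-like cells were at 778 CPM. Macrophage-like cells were at 682 CPM of Ccl6 in the I-PpoI and 219 CPM in the wild-type library. Ccl5, the ligand of activated T cells, had 4083 UMIs (117 CPM) against 651 (33.2 CPM), a ratio of 3.51 (3.23 to 3.82). T cell-like cells held 81.1% and 96.3% of it, at 3747 and 3311 CPM, so its level within them was close in both libraries. In cluster 13 Ccl5 was at 606 CPM in the I-PpoI library, and the wild-type cells there had 1 UMI.

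Ccr1, the receptor of Ccl3, Ccl5, Ccl6 and Ccl9, was over 2-fold apart within macrophage-like cells. Over all kept cells it had 3924 UMIs (112 CPM) against 58 (2.96 CPM), a ratio of 37.8 (29.2 to 49.9). It was at 829 CPM in I-PpoI neutrophil-like cells and 539 CPM in the 12 wild-type ones, and at 233 against 24.9 CPM in macrophage-like cells, where a UMI was seen in 66.7% of cells against 6.82% (19.1% and 0.571% after thinning).

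Chemokines with a membrane anchor, Cx3cl1 and Cxcl16, had broader sources. Cx3cl1, fractalkine, had 1091 UMIs (31.1 CPM) against 477 (24.3 CPM), a ratio of 1.28 (1.15 to 1.43), under the 2-fold mark. Its highest level was in fibroblast-like cells (202 CPM in 288 I-PpoI cells and 632 CPM in 28 wild-type cells), and in the wild-type library the leading class of 30 or more cells was endothelial-like at 47.3 CPM. Its receptor Cx3cr1, carried by kidney macrophages, had 8971 UMIs (256 CPM) against 703 (35.9 CPM), a ratio of 7.14 (6.61 to 7.72). Macrophage-like cells held 97.3% and 91.5% of Cx3cr1, at 599 and 802 CPM, and 86.0% and 89.8% of them had a UMI. The higher library-wide Cx3cr1 level thus stood beside a lower level within the class.

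Cxcl16 had 11373 UMIs (325 CPM) against 1190 (60.7 CPM), a ratio of 5.35 (5.03 to 5.68). In macrophage-like cells it was at 610 and 612 CPM (ratio 0.997, 0.91 to 1.09). In proximal tubule-like cells it was at 193 against 29.8 CPM (ratio 6.47, 5.63 to 7.44), and 70.1% against 13.6% of the cells had a UMI (16.3% against 2.10% after thinning). Its receptor Cxcr6, a receptor of tissue-resident T cells, had 230 UMIs (6.56 CPM) against 160 (8.17 CPM), a ratio of 0.804 (0.654 to 0.990). T cell-like cells held 96.1% and 99.4% of Cxcr6, at 250 against 840 CPM.

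Interferon-induced ligands of Cxcr3 were read in few cells. Cxcl10 had 2144 UMIs (61.2 CPM) in 255 I-PpoI cells and 259 UMIs (13.2 CPM) in 36 wild-type cells, a ratio of 4.63 (4.07 to 5.29). Its I-PpoI sources included macrophage-like cells (87.4 CPM), cluster 13 (87.2 CPM), and proximal tubule-like (65.2 CPM), fibroblast-like (58.9 CPM), neutrophil-like (50.7 CPM) and endothelial-like cells (39.6 CPM). In the wild-type library its highest level was in the 17 cells of cluster 22 (66 UMIs, 352 CPM). A single wild-type cell held 62 of the 259 UMIs. Cxcl9 had 357 UMIs (10.2 CPM) in 28 cells against 56 (2.86 CPM) in 11 cells, a ratio of 3.57 (2.68 to 4.81). A single I-PpoI cell held 141 of the Cxcl9 UMIs, and cluster 13 had the highest level, 107 CPM. Cxcr3, the T cell receptor for both, had 182 UMIs (5.19 CPM) against 101 (5.15 CPM), a ratio of 1.01 (0.786 to 1.30), and was highest in T cell-like cells of both libraries, at 124 and 401 CPM.

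Xcl1 and Xcr1 link lymphocytes to cross-presenting dendritic cells. Xcl1 had 287 UMIs (8.19 CPM) against 215 (11.0 CPM), a ratio of 0.747 (0.623 to 0.895), with 98.3% and 99.1% in T cell-like cells. A further 434 Xcl1 UMIs lay in 3 I-PpoI barcodes left out as likely doublets, 430 of them in 1 barcode, and with those barcodes kept the library-wide log2 ratio was 0.92. Xcr1 had 85 UMIs against 64, and 75 and 61 of these were in cluster 13.

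Cxcl12, the stromal ligand of Cxcr4, was among the few members not higher in the I-PpoI library. It had 678 UMIs (19.4 CPM) against 738 (37.7 CPM), a ratio of 0.514 (0.462 to 0.571). The 28 wild-type fibroblast-like cells had 372 of the 738 UMIs (2374 CPM), and 288 I-PpoI fibroblast-like cells had 216 UMIs (60.3 CPM). Endothelial-like cells went the other way, at 143 CPM in the I-PpoI and 61.3 CPM in the wild-type library, but most lay in different clusters by library, and in the shared endothelial cluster 3 Cxcl12 was at 288 against 262 CPM. Fibroblast-like cells were not compared by the 30-cell rule, so both values are given side by side only.

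Cxcr4, the receptor that signals for Cxcl12, had 2344 UMIs (66.9 CPM) against 85 (4.34 CPM), a ratio of 15.4 (12.4 to 19.4). It was read in neutrophil-like cells (449 and 512 CPM), in B cell-like cells (365 and 120 CPM in 19 and 30 cells), in macrophage-like cells (128 and 28.7 CPM) and in T cell-like cells (118 and 15.8 CPM). Ackr3, the atypical receptor that takes up Cxcl12, had 428 UMIs (12.2 CPM) against 643 (32.8 CPM), a ratio of 0.372 (0.329 to 0.421). In cluster 0 it was at 11.5 against 105 CPM and in cluster 4 at 23.3 against 149 CPM, while in endothelial-like cells it was at 45.2 against 11.4 CPM. Ackr3 was thus lower in those unnamed epithelial clusters and higher in endothelial-like cells of the I-PpoI library. Ackr2, the other measured atypical receptor, had 28 UMIs against 7, of which 27 and 7 were in endothelial-like cells.

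Other ligands had most of their UMIs in 1 class. Cxcl14 had 6071 UMIs (173 CPM) against 442 (22.6 CPM), a ratio of 7.68 (6.97 to 8.48). Fibroblast-like cells held 4829 and 417 of them, at 1348 CPM in 288 cells and 2661 CPM in 28 cells. Macrophage-like cells had 1073 and 15 (73.6 against 18.7 CPM, ratio 3.94), and cluster 0 had 117 and 0. Cxcl13, which guides B cells through Cxcr5, had 457 UMIs in 35 I-PpoI cells against 1 wild-type UMI, and 439 lay in macrophage-like cells. Ccl24 had 517 UMIs in 56 I-PpoI cells against 0, which puts it at least 96.4-fold higher, with 162 of them in 1 cell. Within the macrophage-like class Ccl24 was at 155 CPM in cluster 7, 4.83 CPM in cluster 6 and 1.40 CPM in cluster 9. Cxcl3 followed the same order, at 283, 0.862 and 0.70 CPM, and so did Ccl17, at 69.5, 6.55 and 3.67 CPM. A single cell of cluster 7 held 514 of the Cxcl3 UMIs.

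Ccl17, a ligand of Ccr4, had 930 UMIs (26.5 CPM) against 5 (0.255 CPM), a ratio of 104 (44.4 to 321). Of the 930, 504 were in the 62 I-PpoI cells of cluster 13 (720 CPM), and 302 of these 504 lay in 1 cell. Ccl22, the other Ccr4 ligand, had 29 UMIs against 1, with 27 in cluster 13, of which 22 lay in 1 cell. Ccr7, which takes dendritic cells and naive lymphocytes to lymph nodes, had 82 of its 116 I-PpoI UMIs in cluster 13. In the wild-type library it had 0 UMIs in cluster 13 and 20 of 24 in B cell-like cells.

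The remaining ligands were close between the libraries or sparse. Ccl27a had 431 UMIs (12.3 CPM) against 291 (14.9 CPM), a ratio of 0.828 (0.712 to 0.964), and Ccl25 had 344 (9.82 CPM) against 211 (10.8 CPM), a ratio of 0.912 (0.766 to 1.09). Neither was held mainly by 1 class: macrophage-like cells had 114 of the 344 I-PpoI Ccl25 UMIs and cluster 0 had 129 of the 431 of Ccl27a, their largest parts. Ccl28, a mucosal epithelial ligand, had 73 UMIs against 36. Ccl11 had 65 against 56, mostly in fibroblast-like cells (16.7 CPM in 288 I-PpoI cells and 274 CPM in 28 wild-type cells). Ccl19 had 42 against 8, with 40 of the 42 in fibroblast-like cells. Ccl21a, a lymphatic ligand, had 1 UMI against 115, but 107 of the 115 were in 1 wild-type cell, so its difference rests on that cell. Cxcl17 (195 against 1) and Ccl20 (75 against 0) had 179 and all 75 of their I-PpoI UMIs in cluster 0, the latter in 6 cells.

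Further lymphocyte receptors were low. Ccr6 had 41 UMIs against 6, Ccr8 36 against 2 and Ccr9 55 against 9, with 31, 35 and 37 of the I-PpoI UMIs in T cell-like cells. Ccr10, the receptor of antibody-secreting cells for Ccl27 and Ccl28, had 32 UMIs against 1, and 27 were in the unnamed cluster 10, which was led by the antibody genes Igkc, Iglc1 and Igha. Members under 20 UMIs were Ccr4, Cxcr1, Cxcr5, Ccl1, Ackr4, Ccr3, Ackr1 and Cxcl15.

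**Figure D2:**
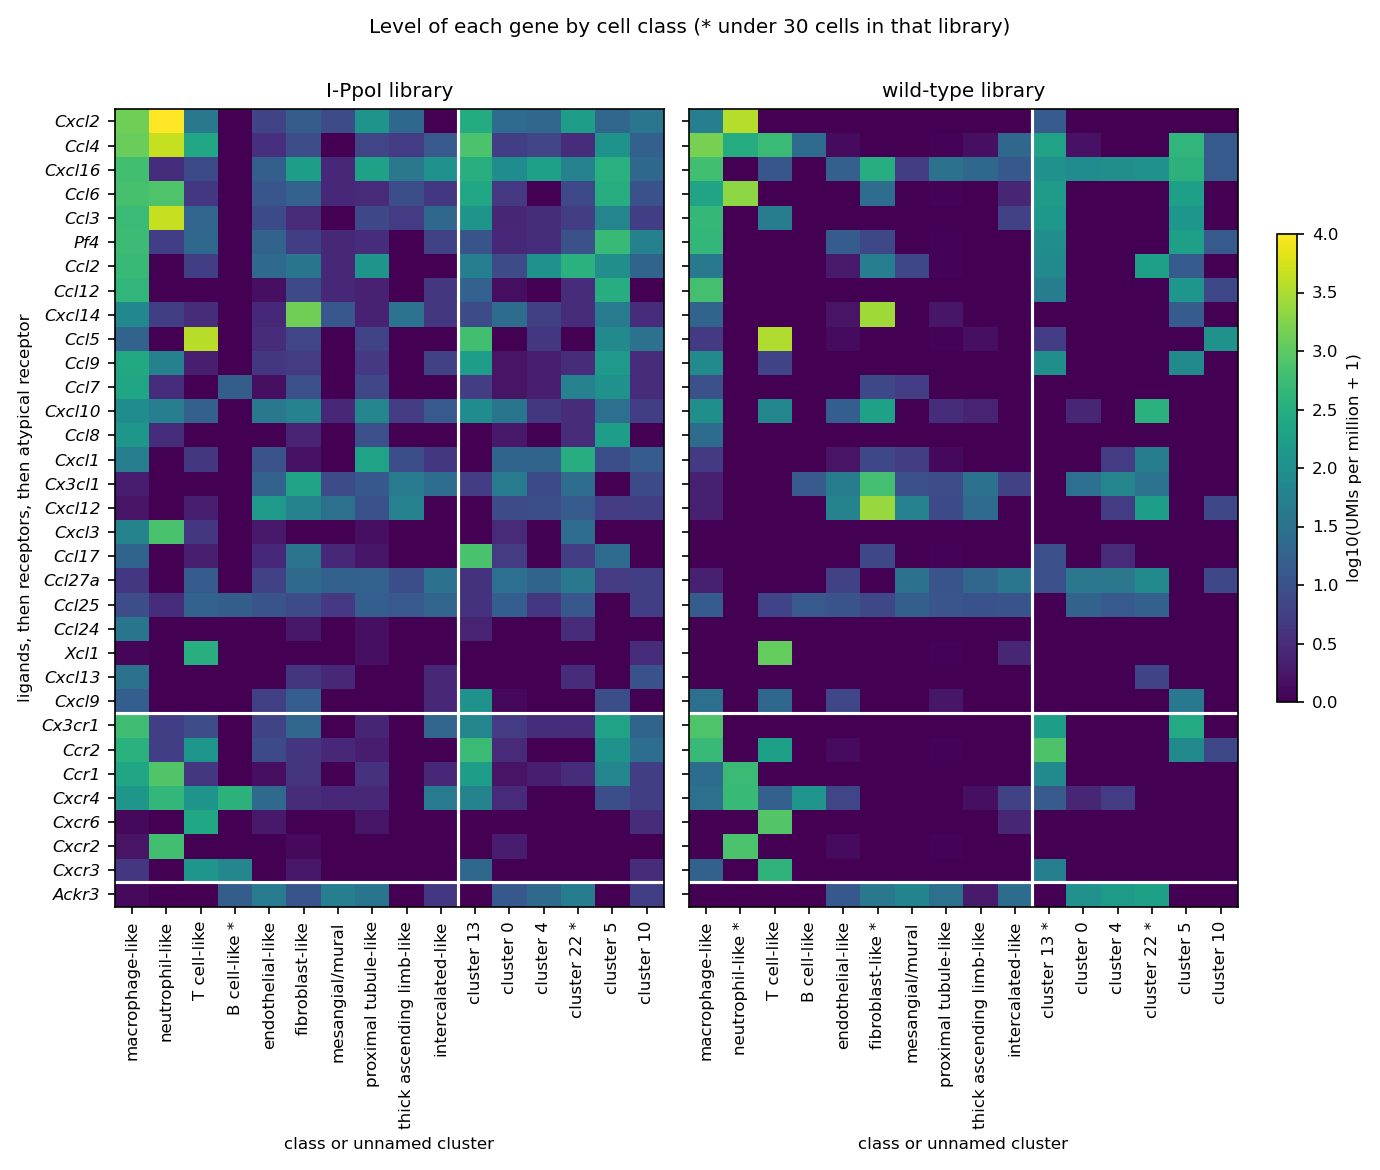
Level of the same 33 members in each class (left of the white line) and unnamed cluster (right of it), as log10(CPM + 1), with 1 panel per library. In the I-PpoI panel the macrophage-like column is bright for most CC ligands and the neutrophil-like column for Cxcl2, Cxcl3, Ccl3, Ccl4 and Ccl6, Ccl5, Xcl1, Cxcr6 and Cxcr3 are bright in T cell-like cells of both panels, and Cxcl14 in fibroblast-like cells of both. Columns with a star hold under 30 cells in that library.

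Within macrophage-like cells a subset of ligands was higher in the I-PpoI library and the defining receptors were not. Of 29 measured members, 17 were at least 2-fold higher (10.1% of all 10850 genes measured there were), and 1, Cxcr3, was at least 2-fold lower (8.28% of genes were). The median log2 ratio was 1.64 over the members and 0.00 over all genes. Ccl7 (228 against 8.73 CPM, ratio 26.1, 12.7 to 65.1) and Cxcl2 (1364 against 52.4 CPM, ratio 26.1, 19.3 to 36.2) led those seen in both libraries. They were followed by Cxcl1 (50.6 against 3.74 CPM, ratio 13.5), Ccl2 (503 against 39.9 CPM, ratio 12.6), Ccr1 (ratio 9.34), Ccl8 (ratio 5.14) and Cxcr4 (ratio 4.48). Cxcl3, Ccl24, Cxcl13, Ccl17 and Ppbp had 0 UMIs in wild-type macrophage-like cells and were at least 16.0-, 9.36-, 8.05-, 4.97- and 2.20-fold higher. A single I-PpoI cell held 514 of the 872 Cxcl3 UMIs of the class. For Ccl27a and Ccl5, with 1 and 3 wild-type UMIs, the ratios of 2.81 (0.482 to 113) and 4.77 (1.61 to 23.3) had wide intervals.

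Macrophage-like cells fell into separate clusters by library. Clusters 6, 7 and 9 had 647, 220 and 730 cells of the I-PpoI library, and cluster 20 had 142 of the 176 in the wild-type library. Cluster 9 also held 23 wild-type cells, too few for a class comparison. Its ratios were smaller for Ccl7 (3.70, 1.44 to 13.6), Ccl2 (2.81, 1.57 to 5.64) and Cxcl2 (1.90, 0.917 to 4.74). Ccr1 was at 7.38 and Cxcr4 at 4.66. In cluster 9, 8 of 25 measured members were at least 2-fold higher (8.44% of genes were). The 5 lower ones (13.6% of genes were) were Ccl4 (0.146), Cxcr3 (0.166), Ccl3 (0.220), Ccl12 (0.307) and Pf4 (0.407). Clustering at the coarser resolution of 0.5, an alternative whose shared cluster was picked after seeing the data, gave a macrophage cluster present in both, with 894 and 164 cells. There, 12 of 26 measured members were at least 2-fold higher (10.2% of genes were) and 2 were lower (7.58% of genes were). Ccl7 (ratio 14.9), Ccr1 (9.35), Ccl2 (8.68), Cxcl2 (6.89), Cxcr4 (5.72) and Ccl8 (5.31) were higher there, as in the whole class. Cxcl13, with 377 UMIs against 0, was at least 13-fold higher. Ccl24 (12 UMIs against 0), which had too few UMIs there to count as measured, and Ccl17 (22 against 0) had lower bounds of 0.415 and 0.761, and Ccl6 had a ratio of 1.77, under 2-fold. Cxcl3 and Ppbp were not measured there either. Ccl4 was lower there (518.8 against 1318 CPM, ratio 0.394), and Cxcr3 had a ratio of 0.259. Pf4 (0.963), Cxcl16 (0.941) and Ccl3 (0.901) were close to 1.

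The macrophage markers summed to 19004 CPM in the I-PpoI and 20931 CPM in the wild-type macrophage-like cells, with 11 of 11 read in both. Neutrophil markers summed to 72.3 CPM (8 of 9 read) and 27.4 CPM (4 of 9 read). The part of RNA from other cells in these ratios was not tested.

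**Figure D3:**
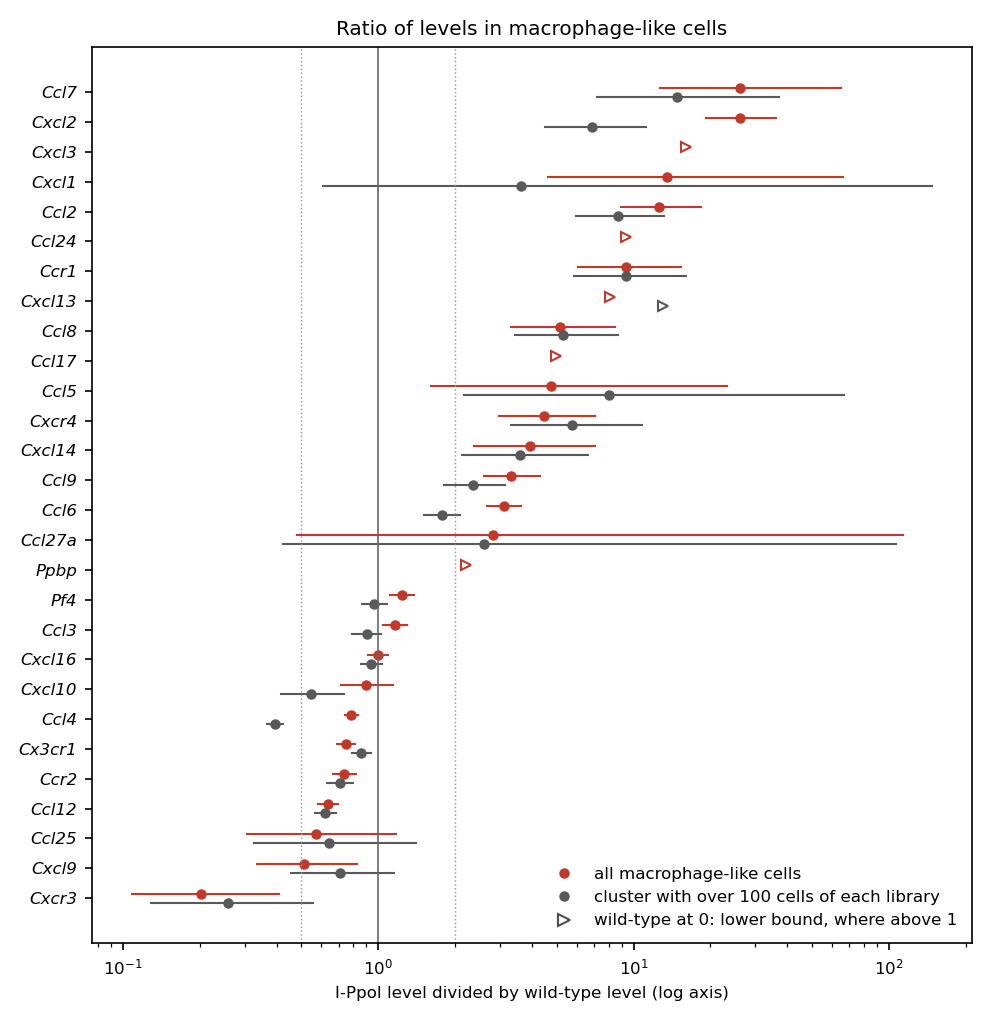
Ratio of I-PpoI to wild-type level for 28 members measured in macrophage-like cells, on a log axis with exact 95% intervals. Red marks all macrophage-like cells and grey the cluster shared by both libraries at the coarser resolution. Ligands such as Ccl7, Cxcl2 and Ccl2 and the receptor Ccr1 lie right of the 2-fold line in both, while Pf4, Cxcl16 and Cx3cr1 lie near 1. Dotted lines mark 2-fold, and open triangles are lower bounds for genes with 0 wild-type UMIs.

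In proximal tubule-like cells, 10 of 15 measured members were at least 2-fold higher in the I-PpoI library (27.2% of all genes measured there were) and 0 were lower (6.78% of genes were). Cxcl1 was at 201 against 0.22 CPM (892 against 2 UMIs), Ccl2 at 116 against 0.11 CPM (512 against 1) and Cxcl10 at 65.2 against 2.31 CPM (289 against 21, ratio 28.3, 18.2 to 46.4). Cxcl2 had 518 UMIs against 0, at least 355-fold higher. Ccl25, Ccl27a, Cx3cl1, Cxcl12 and Ackr3 had ratios between 1.24 and 1.72. Cluster 11, led by Spp1, C3 and Spink1, took in 175 of the 214 from the I-PpoI library and 0 from the other. The wild-type cells were in clusters 12, 14 and 23, so the classes differ in kind as well as in library. Proximal tubule markers summed to 7022 against 46511 CPM, markers of injured proximal tubule to 2382 against 27.6 CPM, and macrophage markers to 102 against 30.1 CPM. The part of these differences in the ratios was not tested. Ccl3, Ccl4, Ccl5, Ccl7 and Ccl8 reached only 5.64 to 8.35 CPM there, 25 to 37 UMIs each.

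In endothelial-like cells, 8 of 15 measured members were at least 2-fold higher (5.87% of all genes measured there were) and 2 were lower (6.42% of genes were). The higher ones included Cxcl12 (143 against 61.3 CPM, ratio 2.34, 1.95 to 2.81), Ackr3 (ratio 3.96, 2.68 to 5.99), Cxcr4 (22.2 against 5.87 CPM, ratio 3.77) and Cxcl10 (39.6 against 14.7 CPM, ratio 2.69, 1.87 to 3.94). Ccl2 had 54 UMIs against 3, and Ccl6 25 against 0. Cx3cl1 was lower, at 17.4 against 47.3 CPM (ratio 0.368, 0.252 to 0.525), and Ccl21a, the other lower one, was the single cell named above. Most of the I-PpoI class (267 of 358) was in cluster 15, and most of the wild-type class was in clusters 17 and 18 (155 and 413 of 657). Macrophage markers summed to 146 against 72.7 CPM, and their part in the ratios was not tested. Cluster 3, with 56 and 76 cells, was shared, and there 2 members were measured and 0 were called (4.96% of genes were higher and 7.27% lower). They were Cxcl12 (288 against 262 CPM, ratio 1.10, 0.874 to 1.38) and Cx3cl1 (40.0 against 42.8 CPM, ratio 0.936, 0.503 to 1.73), so neither was called in the shared cluster.

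T cell-like cells had more members lower than higher. They came from cluster 8 in both libraries, with 258 and 60 cells at medians of 2906 and 3002.5 UMIs. Of 14 measured members, 4 were at least 2-fold higher (12.4% of genes were) and 6 were at least 2-fold lower (6.42% of genes were). The 6 were Cxcl10 (15.8 against 68.6 CPM, ratio 0.231), Xcl1 (319 against 1125 CPM, ratio 0.284, 0.237 to 0.341), Cxcr6 (ratio 0.298, 0.242 to 0.368), Cxcr3 (ratio 0.310, 0.229 to 0.421), Ccl3 (ratio 0.405, 0.171 to 1.03) and Ccl4 (238 against 523 CPM, ratio 0.455, 0.356 to 0.583). All 13 wild-type Cxcl10 UMIs lay in 1 cell. The higher ones were Cxcr4 (118 against 15.8 CPM, ratio 7.43, 2.47 to 36.6), Ccr8, Ccr6 and Cxcl2, with 0 wild-type UMIs for Ccr6 and Cxcl2 and an interval of 0.964 to 32.2 around the Ccr8 ratio of 3.75. The 6 lower calls were 2 when no doublets were left out and 3 when cells were named by marker score.

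Beside these values, natural killer cell markers summed to 121 CPM in the I-PpoI cells (5 of 8 read) and 1130 CPM in the wild-type cells (8 of 8 read). T cell markers summed to 4660 and 5344 CPM, with 12 and 11 of 12 read. Whether the mix of lymphocytes sets the lower Xcl1, Cxcr6 and Ccl4 levels was not tested.

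Other classes held few measured members. Intercalated-like cells came from cluster 24 and mesangial, mural and renin-like cells from cluster 19 in both libraries. In intercalated-like cells 2 of 4 were at least 2-fold higher, Cxcl16 (110 against 11.5 CPM) and Cxcr4 (43.6 against 4.93 CPM), where 16.3% of genes were, and 0 were lower, where 4.80% were. Macrophage markers there summed to 434 against 36.2 CPM, and their part in these ratios was not tested. In thick ascending limb-like cells 1 of 5, Cxcl12, was higher (14 against 52 UMIs, ratio 2.39, 1.22 to 4.37), where 6.13% of genes were. Ccl27a was lower there (2 against 43 UMIs, ratio 0.412, 0.0484 to 1.58), where 23.6% of genes were. Of the thick ascending limb-like cells, cluster 2 held 78 I-PpoI and 260 wild-type cells, and cluster 26 held 1 and 78. In cluster 2, with too few UMIs to count as measured, Ccl27a had a ratio of 0.846 (0.0858 to 4.45) and Cxcl12 of 13.8 (3.86 to 75.0). In mesangial, mural and renin-like cells 0 of 3 were called in either direction (6.82% of genes were higher and 5.39% lower).

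How far a library-wide difference goes with the makeup of a library and how far with levels inside classes was set out by arithmetic for 46 members. Wild-type levels were weighted by the I-PpoI class shares of UMIs (makeup alone), or I-PpoI levels by the wild-type shares (level alone). By makeup alone 33 of 46 were at least 2-fold higher and 3 at least 2-fold lower, by level alone 22 were higher and 7 lower, and 14 were higher by both. Cx3cr1 (makeup 9.41, level 0.823), Ccl12 (9.83, 0.708), Ccl4 (9, 1.03) and Cxcl14 (12.4, 0.954) were higher by makeup alone. Cxcl1 (2.93, 96.3), Ccl17 (3.46, 48.5), Ccl7 (8.52, 26.7), Cxcl2 (7.31, 17.2) and Ccl2 (5.02, 16.6) were higher by both, with the larger factor in the level. Xcl1 (2.59, 0.303), Cxcr6 (2.60, 0.355) and Cxcr3 (3.44, 0.381) were higher by makeup and lower by level. The factors need not multiply to the observed ratio, and how many cells of a class were recovered in the digestion is part of the makeup. Every named class was used, also those with 12 (neutrophil-like) and 28 (fibroblast-like) wild-type cells, and all unnamed clusters were pooled. A difference in clusters within a class or within that pool counts as level. For Cxcl1, 175 of the 214 I-PpoI proximal tubule-like cells were in cluster 11, which held 0 wild-type cells.

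**Figure D4:**
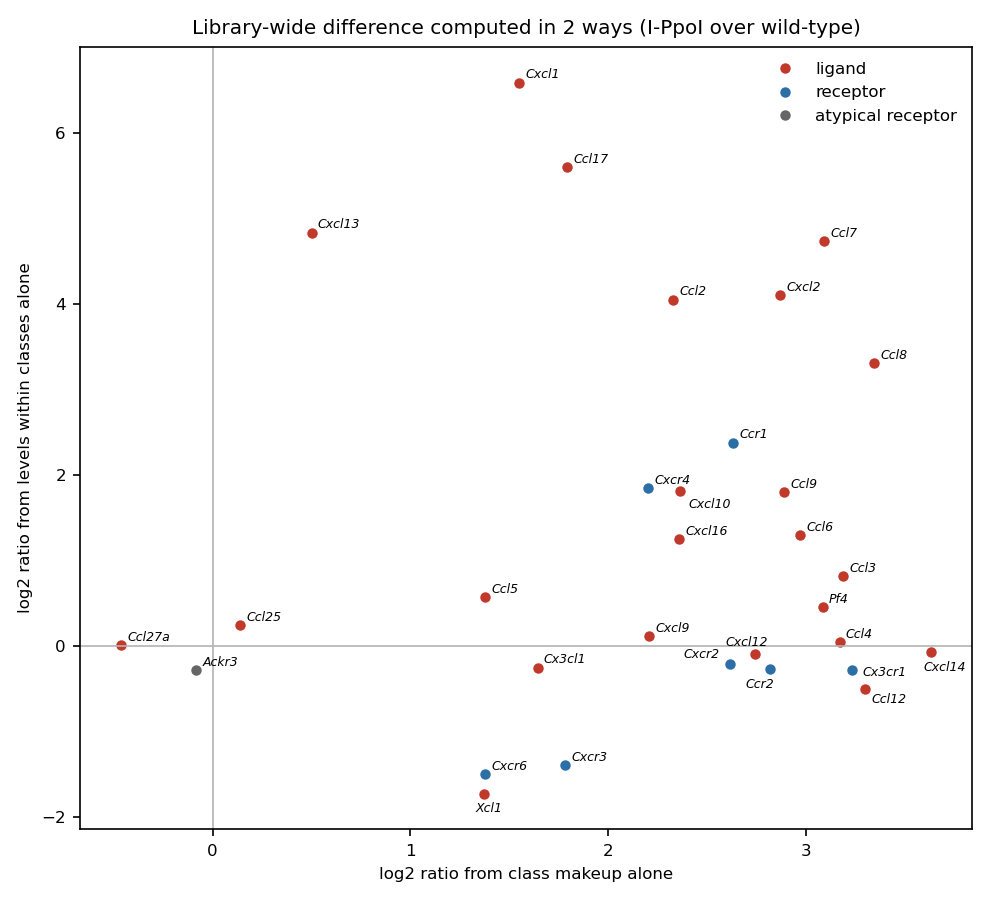
Log2 ratio of library-wide level (I-PpoI over wild-type) computed from class makeup alone (horizontal) and from levels within classes alone (vertical) for 31 members with 200 or more UMIs and wild-type UMIs above 0 (red ligands, blue receptors, grey atypical receptor). Cx3cr1, Ccl4 and Cxcl14 lie far right near the zero line of level, Cxcl1, Ccl17, Cxcl13, Ccl7, Cxcl2 and Ccl2 lie high, and Xcl1, Cxcr6 and Cxcr3 lie right and below it.

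For each member and library, the leading class was the named class of 30 or more cells with the highest level among those with 5 or more UMIs. A leading class was found for 49 members in the I-PpoI library and 35 in the wild-type library, and it was the same in 21. Among I-PpoI ligands, macrophage-like cells led 12, neutrophil-like and fibroblast-like cells 5 each, intercalated-like cells 4, T cell-like cells 3, proximal tubule-like cells 2 and endothelial-like cells 1. Among I-PpoI receptors, T cell-like cells led 7 and macrophage-like and neutrophil-like cells 4 each. In the wild-type library macrophage-like cells led 14 ligands and 4 receptors. Neutrophil-like and fibroblast-like cells could lead none there, with 12 and 28 cells. Unnamed clusters could not lead in either library, and some stood above the leader. In the I-PpoI library intercalated-like cells led Cxcl5 (10.5 CPM) and Cxcl17 (17.4 CPM) with 6 and 10 UMIs, below cluster 0 at 25.7 and 38.1 CPM. Fibroblast-like cells led Ccl17 at 33.2 CPM, below cluster 13 at 720 CPM, where 1 cell held 302 of the 504 UMIs.

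Of 40 textbook ligand and receptor pairs, 38 had both genes in the files, 28 had a leading class for both in the I-PpoI library and 19 in the wild-type library. Of the 18 pairs read in both libraries, 8 had the same sender and receiver, among them Ccl2, Ccl7 and Ccl12 to Ccr2 within macrophage-like cells and Cxcl16 from macrophage-like cells to Cxcr6 on T cell-like cells. In the I-PpoI library neutrophil-like cells were the leading receiver in 11 of 28 pairs, through Cxcr2, Ccr1 and Cxcr4, macrophage-like and T cell-like cells in 8 each and mesangial, mural and renin-like cells in 1. In the wild-type library macrophage-like cells were the leading receiver in 12 of 19 pairs, T cell-like cells in 4 and B cell-like cells in 2. This rests on the 30-cell rule: the 12 wild-type neutrophil-like cells had more Ccr1 (539 CPM) than the macrophage-like cells (24.9 CPM). It also leaves out unnamed clusters as senders and receivers. In the I-PpoI library Xcr1 was assigned to macrophage-like cells at 0.618 CPM, below cluster 13 at 107 CPM. Ccr7 was assigned to T cell-like cells at 15.8 CPM, below cluster 13 at 117 CPM. The same class led sending and receiving in 8 and 9 pairs. Cxcl1 to Cxcr2, from proximal tubule-like to neutrophil-like cells, and Cx3cl1 to Cx3cr1, from fibroblast-like to macrophage-like cells, were among the I-PpoI pairs with a sender outside the leukocytes. In the wild-type library Cx3cl1 led in endothelial-like cells (47.3 CPM) and Cxcl1 had no leading class. The 30-cell rule left out the 28 wild-type fibroblast-like cells, where Cx3cl1 was at 632 CPM. RNA levels in 2 cell classes do not show that a signal passed between them.

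**Figure D5:**
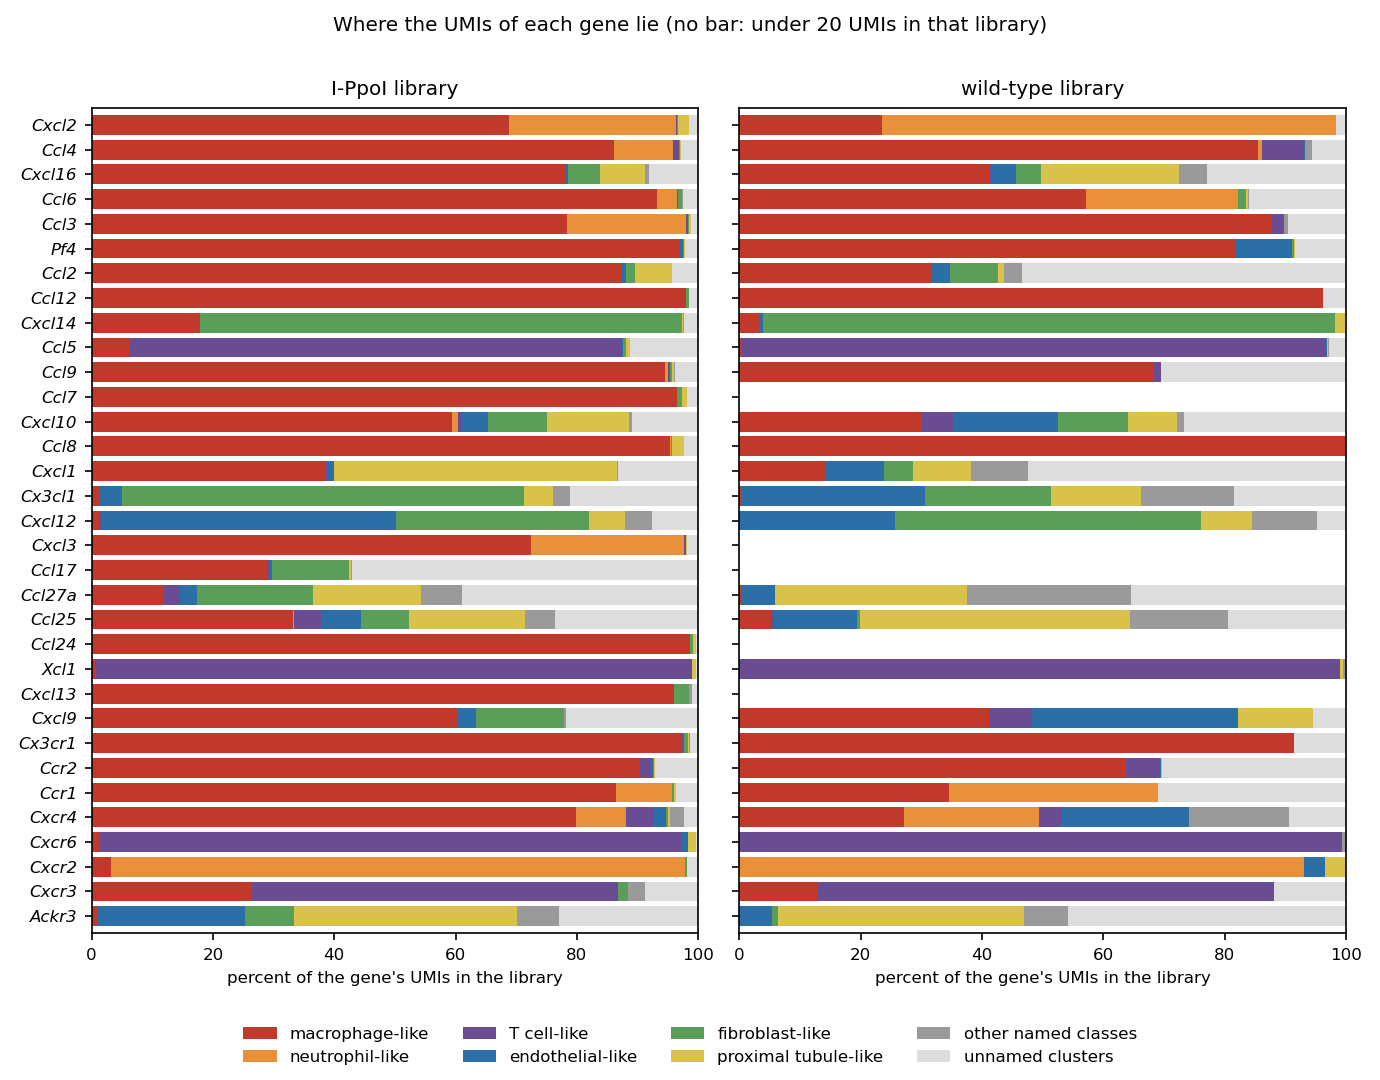
Share of each gene's UMIs by class, in percent of the gene's UMIs in that library, with no bar under 20 UMIs. Red (macrophage-like) fills most bars of CC ligands and of Cx3cr1 and Ccr2 in the I-PpoI panel, purple (T cell-like) fills Ccl5, Xcl1 and Cxcr6 in both, orange (neutrophil-like) fills Cxcr2 in both, and yellow (proximal tubule-like) is the largest part of I-PpoI Cxcl1.

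Other genes of the pathway came from 6 lists, each given here as higher by at least 2-fold among those measured. Over the whole libraries, 11 of 12 genes of migration signalling, 8 of 12 of G protein and receptor regulation, 9 of 14 inducers and NF-kB genes, 7 of 8 other chemoattractant receptors, 7 of 10 adhesion partners and 4 of 7 proteases that cleave chemokines were higher, and 0 were lower. Within macrophage-like cells these counts were 0 of 12, 2 of 12, 6 of 12, 2 of 8, 2 of 8 and 2 of 7, with 1 gene lower in each list other than migration signalling and other chemoattractant receptors. Of all measured genes 18.5% were higher and 14.1% lower over the whole libraries, and 10.1% were higher and 8.28% lower in macrophage-like cells. The examples are those with most UMIs in these cells. The inducer Il1b (1386 against 547.3 CPM, ratio 2.53), Nfkbia, which holds NF-kB in the cytoplasm (653.8 against 235.6 CPM, ratio 2.77), and Zfp36, which speeds the decay of cytokine messages (ratio 3.09), were higher. Rgs1, which dampens chemokine receptor signalling, had a ratio of 3.16, beside 1.36 for Rgs2 and 1.12 for the G protein subunit Gnai2. The migration genes Coro1a (0.74), Fyb (0.721) and Rac2 (0.933) were all slightly below 1. Outside these, named after their values were seen because the counts are small, the other higher genes were Il1a, Tnf, Tnfaip3, Ccrl2, Mmp8, Mmp14, S1pr1, Ltb4r1, Vcam1 and Itgam, and the lower ones outside the inducer list were Grk3, Dpp4 and Itgb7. Of the higher ones, Il1a had 1 wild-type UMI in these cells, Mmp8 and Ltb4r1 2 each, S1pr1 6 and Mmp14 7. The interval of the ratio was 0.681 to 21.2 for Mmp8 and 1.02 to 6.18 for S1pr1.

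Many members sit in gene clusters on the mouse genome (GRCm38). Ccl2, Ccl7, Ccl11, Ccl12 and Ccl8 lie within 81.2 kb of chromosome 11 from position 82035571 to 82116799. Within macrophage-like cells their I-PpoI to wild-type ratios ran from 0.636 for Ccl12 to 26.1 for Ccl7, with Ccl11 at 2 UMIs against 0. A second group on chromosome 11, Ccl5, Ccl9, Ccl6, Ccl3 and Ccl4, spans 139 kb, with ratios there from 0.783 for Ccl4 to 4.77 for Ccl5. On chromosome 5, the measured members Cxcl5, Ppbp, Pf4, Cxcl3, Cxcl1 and Cxcl2 span 147 kb, and Pf4 was at 1.24 beside Cxcl2 at 26.1. Neighbours thus differed in size and in direction within one class.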

How the data were processed

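Single-cell RNA from kidney cortex was read as UMI counts in 2 libraries, 1 per group. The deposited counts are whole UMIs per gene and barcode, unnormalized; the labels' protocols name the Chromium Single Cell 3' kit version 3.1, the submitters' processing notes name Cell Ranger 3.1, and the file headers name Cell Ranger 6.0.2. All deposited barcodes had at least 500 UMIs. Kept cells had at least 200 genes and at most 50% mitochondrial UMIs; under the gene limit were 1144 I-PpoI and 1732 wild-type barcodes, and over the mitochondrial limit 1058 and 2054. Scrublet's automatic threshold marked 0.733% and 0.155% of barcodes, under the working minimum of 0.5% in the wild-type library, so the 4% with the highest scores were left out in both libraries (142 and 123 barcodes left out).

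Clustering used scanpy 1.11.5, 2000 variable genes without the members, 30 components, 15 neighbours and Leiden resolution 1. A cluster was named from marker lists when 3 or more markers were at 25 CPM and 4-fold over the median cluster (10 CPM added), and stayed unnamed when markers of another class outnumbered its own among its 10 top genes. Names were rebuilt here and may differ from the study's. Free RNA was not removed.

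Levels are CPM of a class or library, from its summed counts. Intervals are exact Poisson, conditional binomial or Clopper-Pearson at 95% and cover counting error only. Only the conditional binomial intervals of ratios were tested, on simulated independent Poisson counts. That test does not cover UMIs that pile up in single cells. PCR duplicates are collapsed by UMI. A gene was measured with 20 UMIs over both libraries and called past 2-fold; genes at 0 were set at a floor of 3 UMIs and called only as higher in the other library. Classes were compared with 30 or more cells in each library, except in the makeup and level arithmetic, which used every named class. Cells are not replicates, so no p-value was computed. Members with 200 or more UMIs were described by level, leading class and ratio, those below that by their leading cells, and those at 0 by name. Pathway genes named as examples are the 3 of a list with most UMIs. Members, gene lists and pairs were chosen with earlier results of these data known.

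Start sites and promoters came from RefSeq (GRCm38.p6) and gene positions from GENCODE (GRCm38). Alternatives covered the gene, mitochondrial and doublet filters, resolution, variable genes, naming by marker score, scaling, per-cell means, UMI minimum, fold and, after seeing the data, a shared macrophage cluster and leaving out the top cell. Some counted genes are not reported here by name.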

Additional observations from a re-analysis of the deposited data

Results flagged for a closer look

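In the I-PpoI library, barcodes left out as likely doublets held more UMIs of 2 ligands than the kept cells did. Xcl1 had 434 UMIs in 3 such barcodes, 430 of them in 1, against 287 in kept cells. Ccl1 had 363 UMIs in 1 such barcode against 15 in kept cells.

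Ratios of I-PpoI to wild-type level pointed in opposite directions in different classes for 2 ligands, and the differences between classes were not tested. Ccl4 had a ratio of 53.4 in proximal tubule-like cells, from 26 UMIs against 1, and 0.455 in T cell-like cells. Cxcl10 had a ratio of 2.69 in endothelial-like cells and 28.3 in proximal tubule-like cells, and 0.231 in T cell-like cells, where the 13 wild-type UMIs lay in 1 cell.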

How the results depend on the processing

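Of 167 counts recomputed under the alternatives, 148 stayed within 1.5 times, and of 384 values of single members 288 moved by less than their interval, 92 moved further and 4 changed direction. The counts of members higher over the whole libraries and in macrophage-like cells, and the counts of leading classes and pairs, were among those that stayed. Members lower library-wide (2) were 4 with a mitochondrial limit of 25% or a minimum of 10 UMIs, and 1 with the mean of each cell's CPM, at 3-fold or without the top cell, which takes out Ccl21a. Members lower in macrophage-like cells (1) were 2 at resolution 0.5 or 2, by marker score, without mitochondrial genes in the scaling, by per-cell mean or in the shared cluster, and 3 at 10 UMIs. Members lower in T cell-like cells (6) were 2 without doublet removal and 3 by marker score. Members higher in T cell-like cells (4) were 1 at 50 UMIs and 2 at 3-fold. In endothelial-like cells 5 in place of 8 were higher at 50 UMIs, and 1 in place of 2 lower with the mitochondrial limit of 25% or at 3-fold. The 4 log2 ratios that changed direction were those of Cxcl9 in macrophage-like cells (0.59 with the 25% limit), Xcl1 library-wide (0.92 without doublet removal), Cxcr6 library-wide (0.0047 by per-cell mean) and Pf4 in macrophage-like cells (-0.054 in the shared cluster). The cause was not tested in any of these. Depth limits sparse members: 3 UMIs in the wild-type library are 0.153 CPM. No paired analysis was possible because each group is 1 library.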
